A study of Mus musculus with 7 samples.

Results

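The genes described here are the chromosome 9 neighbours of *Pgr*, the gene of the progesterone receptor. They were chosen by position and level: every gene of mouse assembly GRCm39 that lies within 10 Mb of *Pgr* (chr9:8899830-8968612), has a mean of at least 10 reads over all libraries, and is neither *Pgr* itself, the adjoining transcript *Gm16485*, nor an *Mmp* or *Adamts* gene. The rule kept 60 of the 52230 genes to which the files' transcripts could be assigned. Of these, 54 were protein-coding, 20 lay on the centromeric side of *Pgr*, 39 on the other side, and *Gm32014*, a long non-coding RNA, overlapped the start of *Pgr* on the opposite strand. At the edge of the level rule, *Gm32014* had 11.87 mean reads, *5330432J10Rik* 14.43 and *Kdm4d* 22.64, while *1700128F08Rik* with 7.2, *Gm45494* with 6.36 and *Cntn5* with 5.43 were left out. The group was proposed, and *Trpc6*, *Gria4*, *Hephl1* and *Cfap300* were put forward as its leading genes, from differences between knockout and wildtype in these same libraries, so counts and fold changes over the group are given as a description.

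RNA-seq was performed on ovarian stroma, the residual ovary after granulosa cells had been released by puncture, from PRKO mice. This line carries Pgrtm1Bwo, a targeted null allele present in every cell of the animal, so the loss of the receptor was not limited to the stroma. The wildtype group (WT, PGR +/+) had 4 libraries and the null group (KO, PGR -/-) had 3, and each library pooled the tissue of 3 mice. All females had been given 5 IU PMSG and, 44 h later, 5 IU hCG, and ovaries were taken 8 h after hCG at 21 to 27 days of age (21 to 25 days in the study's design text). The mice were littermates by the design text, and the labels give no strain background beyond the allele.

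Genes that sit close together on a chromosome are inherited together, so mice that are homozygous for a targeted allele also share the DNA around it. Genotype at *Pgr* and any DNA inherited with it cannot be told apart in this design. The neighbourhood itself is a mixture of unrelated functions. It holds the ion channel gene *Trpc6*, the inflammatory caspases *Casp1*, *Casp4* and *Casp12*, the apoptosis inhibitors *Birc2* and *Birc3*, the Hippo pathway co-activator *Yap1*, several genes of cilia and centrosomes, and, farther out, the copper-dependent ferroxidase *Hephl1*. *Casp4* encodes caspase-11, which senses bacterial lipopolysaccharide inside the cell and starts pyroptosis, and inbred mouse strains are known to differ in whether its transcript is spliced to make a full protein.

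Transcript forms of *Casp4*, *Gpr83* and *Tmem123* are compared below, so the reference sequence at exons where their annotated forms differ is shown first. The sequences are given 5′ to 3′ on the + strand of GRCm39, with the intron's first bases GT and last bases AG in capitals. For *Casp4* these are the ends of the introns that follow exons 3, 6 and 7 of Casp4-201, each with 10 bases of exon and 20 bases of intron. Casp4-207 begins in intron 3 and keeps its last 277 bases, Casp4-204 lacks exon 3 and runs 1038 bases into intron 6, and Casp4-202 runs 711 bases into intron 7. These are bases of the reference genome, not of the mice that were sequenced.
Casp4 exon 3 donor, chr9:5322908-5322937: gacacaagaaGTactctcctttgttgttga
Casp4 exon 4 acceptor, chr9:5323605-5323634: tgtatgtctaatttaaacAGatttacccaa
Casp4 exon 6 donor, chr9:5327310-5327339: acaaccccacGTatgtattttctaaaccat
Casp4 exon 7 acceptor, chr9:5328413-5328442: gacactttctctcttcacAGatcacttgtc
Casp4 exon 7 donor, chr9:5328533-5328562: attcctgaagGTgaatgctttgcagctcat
Casp4 exon 8 acceptor, chr9:5335976-5336005: catcattattttgattttAGgtgcaacaat
Gpr83 exon 2 with 20 intron bases on each side, chr9:14776048-14776213: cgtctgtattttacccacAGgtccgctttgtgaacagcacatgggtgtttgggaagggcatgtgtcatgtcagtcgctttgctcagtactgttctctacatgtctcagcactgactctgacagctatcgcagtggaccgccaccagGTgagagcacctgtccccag
Tmem123 exon 3 of Tmem123-203, 20 intron bases and the 56 coding bases, chr9:7785192-7785267: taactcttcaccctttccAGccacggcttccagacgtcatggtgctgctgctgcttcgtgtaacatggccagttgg

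The 7 libraries held 47.4 to 63.4 M reads. *Pgr* was checked first. Its level was 19.5, 31.0, 21.5 and 16.8 CPM (reads scaled to a common library size with edgeR's TMM factors) in WT1 to WT4 and 6.13, 6.52 and 7.56 in KO2 to KO4, so the groups did not overlap and the KO mean was 30.3% of the WT mean. On the first principal component of all genes, which held 24.5% of the variance, KO2 and KO3 stood at -25.2 and -29.5, whereas KO4 stood at 8.5, within the WT range of -7.5 to 33. Counts over the neighbours of *Pgr* that moved by over 1.5 times without KO4 are given beside the results they touch. So are log2 fold changes of *Casp4*, *Tmem123*, *Cep295* and the neighbours with an unadjusted p under 0.05, where they moved that far. Other genes carry no such value, and its absence does not show that a result holds without KO4. *Sesn3*, *Pdgfd*, *Fat3* and *Dync2h1* are among them, and KO4 was their highest KO library. The tissue was what its label says in that fibroblast genes were abundant (summed level of 6 markers 4340 to 7000 CPM in WT and 4510 to 5180 in KO), but it was not free of other cells. The 5 theca markers summed to 8540 to 10800 CPM in WT and 7610 to 8100 in KO, the 5 smooth muscle and pericyte markers to 1820 to 2390 and 1380 to 1850, the 5 endothelial markers to 659 to 746 and 622 to 655, and the 6 oocyte markers to 220 to 285 and 240 to 356. Granulosa (575 to 850 and 671 to 945 CPM over 7 markers), leukocyte (105 to 127 and 94.8 to 135 over 5) and surface epithelial markers (26.8 to 51.9 and 20 to 36.7 over 5) overlapped between the groups. So did the sums for fibroblasts, for smooth muscle and pericytes, and for oocytes, whereas those for theca and endothelium did not. *Cyp11a1* made up most of the theca sum (5310 to 7280 CPM in WT and 5200 to 5630 in KO). Taken singly, *Cyp11a1*, *Cyp17a1*, *Insl3* and *Fdx1* overlapped between the groups, and of the theca markers only *Star* did not. In bulk tissue, fewer cells of a type and less RNA per cell cannot be told apart, and the part of these shifts in the values below was not tested. Nothing in the labels says that pools came from separate breeding pairs, so p-values measure the spread between these pools.

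Few neighbours of *Pgr* met the thresholds for a called difference between KO and WT. By edgeR's quasi-likelihood test, with Benjamini–Hochberg adjustment over 19233 genes, 0 of the 60 had an adjusted p of at most 0.05 with a log2 fold change (logFC, KO over WT) of at least 0.5 in size, against 0.0104% (2 genes) of all genes tested. All 60 were tested. At an unadjusted p under 0.05 there were 10, which is 16.7% of the group against 8.94% of all genes. *Trpc6*, *Gria4*, *Hephl1*, *Cfap300*, *Cwf19l2* and *Kdm4dl* were higher in KO (6 of 60, 10%, against 3.84% of all genes), and *Yap1*, *Maml2*, *Amotl1* and *Muc16* were lower (4 of 60, 6.67%, against 5.1%). DESeq2, the tool of the study, called 3 of the 58 for which it gave an adjusted p, *Trpc6*, *Gria4* and *Hephl1*, all higher in KO, which is 5.17% against 0.835% of 16885 genes. With each library left out in turn it called between 1 and 4, and the count of 1 was without KO2. *Pgr* itself, with a logFC of -1.72, had an adjusted p of 0.0544 in edgeR and 3.67e-15 in DESeq2. By edgeR *Pgr* was thus not called either, and absence of an edgeR call does not show equal levels. The 4 WT and 3 KO libraries did not overlap for 11 members (18.3%, against 9.05% of all genes), 8 of them higher in KO (13.3%, against 3.93%) and 3 lower (5.0%, against 5.12%). Without KO4, 23 members did not overlap, where 24.1% of all genes did not, and 15 had an unadjusted p under 0.05, where 12.3% of all genes had. Without KO3, 17 did not overlap, where 14.8% of all genes did not.

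The size of most differences was small. The median absolute logFC was 0.117 over the 60 members and 0.097 over all genes, and 32 members were higher and 28 lower in KO. An absolute logFC of at least 0.5 was seen in 7 members (11.7%, against 6.65% of all genes). Of these, 2 lay within 1 Mb of *Pgr*, 2 from 1 to 5 Mb and 3 from 5 to 10 Mb. Within 1 Mb of *Pgr*, 3 of 6 members had an unadjusted p under 0.05, with a median absolute logFC of 0.202. From 1 to 5 Mb it was 2 of 22 (9.09%), with a median of 0.107, and from 5 to 10 Mb it was 5 of 32 (15.6%), with a median of 0.116. The next stretch of the chromosome, 10 to 20 Mb away, had 2 of 105 (1.9%) and a median of 0.086, the stretch from 20 to 40 Mb 12.6% of 190, the rest of the chromosome beyond 40 Mb 9.42% of 764, and the other chromosomes 8.89% of 18105. The 3 members nearest to *Pgr* in that count were on the centromeric side, where 5 of 20 members (25.0%) had such a p, and on the far side it was 5 of 39 (12.8%). Distance and absolute logFC were loosely related across the 60 members (Spearman's rank correlation -0.13), less than level and absolute logFC (-0.41 with mean CPM, lower genes having larger values), and neighbouring genes share the same libraries.

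**Figure D1:**
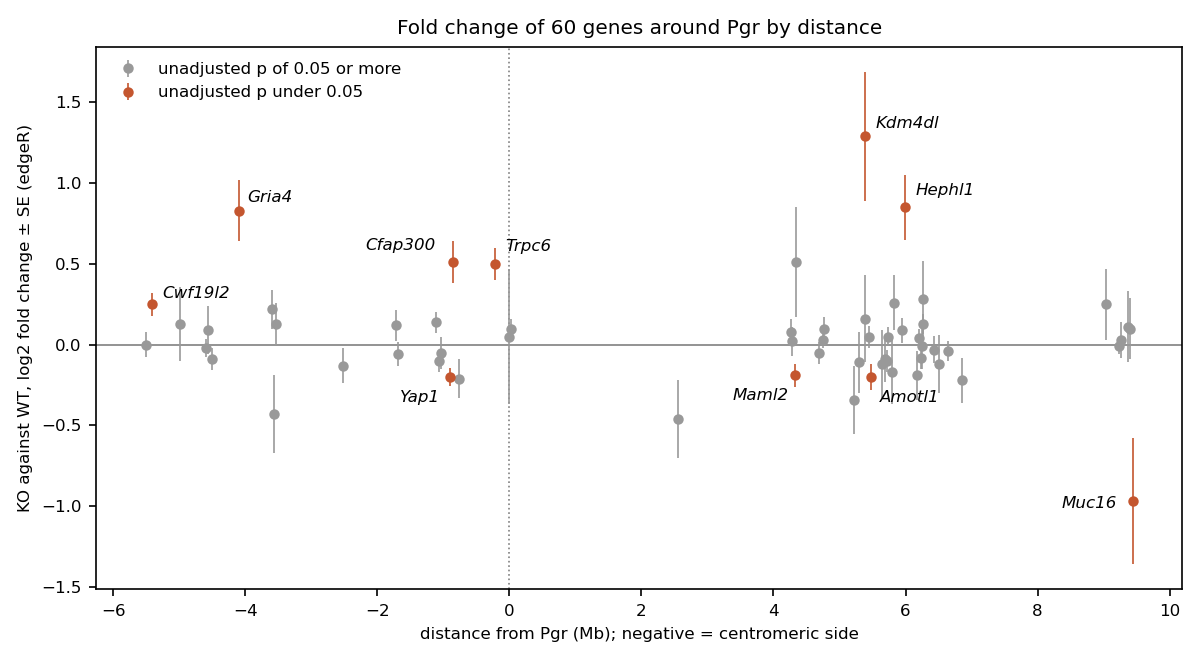
Log2 fold change of KO over WT (edgeR) with its standard error for the 60 genes, by distance from *Pgr* in Mb, negative on the centromeric side. The 10 genes with an unadjusted p under 0.05 are named, and they lie on both sides and in both directions, from *Cwf19l2* at 5.41 Mb to *Muc16* at 9.44 Mb.

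**Figure D2:**
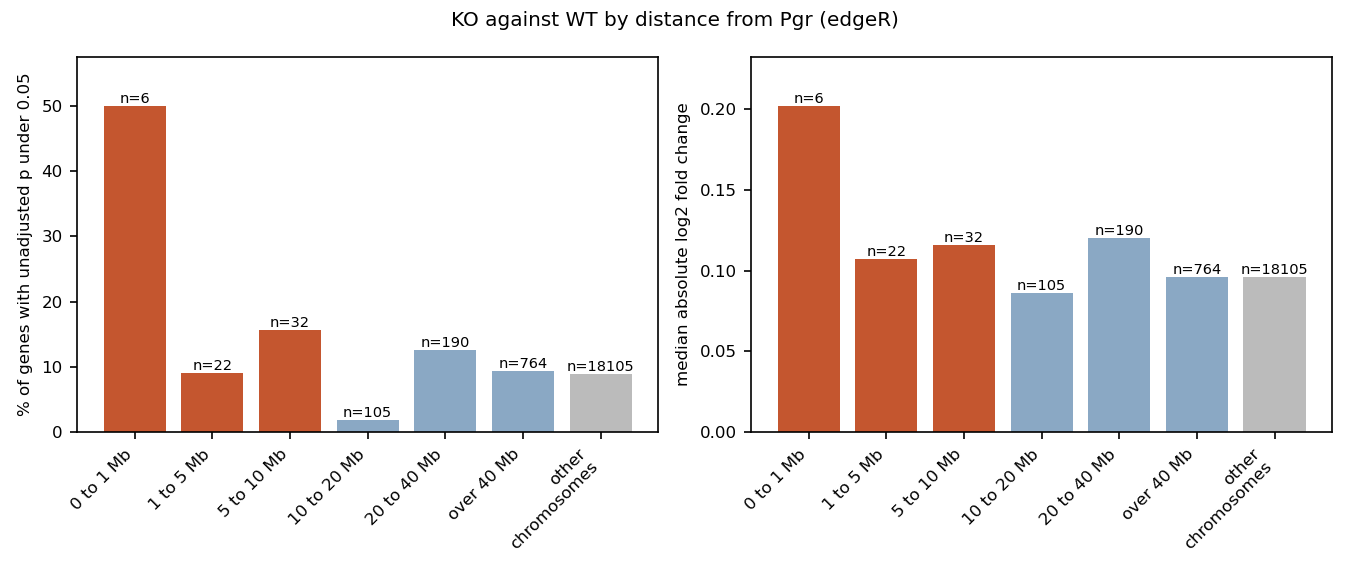
Share of genes with an unadjusted p under 0.05 (left, %) and median absolute log2 fold change (right) by distance from *Pgr*, for the 60 genes (orange), farther stretches of chromosome 9 (blue) and the other chromosomes (grey), with the number of genes over each bar. The class within 1 Mb stands at 50% and 0.202, but holds only 6 genes.

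Among channels, receptors and adhesion molecules, *Trpc6* and *Gria4* had the smallest p-values of the 60 genes. *Trpc6*, a calcium-permeable cation channel opened by diacylglycerol, lies 0.217 Mb from *Pgr* (chr9:8492905-8682359). Its level was 12.6, 13.2, 12.1 and 11.9 CPM in WT1 to WT4 and 16.1, 16.2 and 20.5 in KO2 to KO4. Every KO library was above every WT library, KO4 the farthest. The logFC was 0.50 ± 0.097 (SE), 1.42-fold, with an adjusted p of 0.186 in edgeR and 0.00271 in DESeq2, and it was 0.38 without KO4. *Gria4*, a subunit of AMPA-type glutamate receptors (chr9:4417604-4796326, 4.1 Mb away), was at 4.27, 2.5, 3.87 and 2.99 CPM in WT and 6.71, 6.15 and 5.38 in KO. Again the groups did not overlap, and here KO4 was the lowest KO library. The logFC was 0.83 ± 0.19, 1.78-fold, with an adjusted p of 0.239 in edgeR and 0.00276 in DESeq2. Of the neuron and glia markers 4 could be tested, 3 higher and 1 lower in KO by logFC (median 0.32). The 2 with an unadjusted p under 0.05 in edgeR, *Tubb3* (logFC 0.44) and *Snap25* (logFC -1.04), lay in opposite directions, the summed level was 31.0 to 41.6 CPM in WT and 35.4 to 41.6 in KO, and the part of these cells in the *Gria4* value was not tested. *Panx1*, a channel that releases ATP, had a logFC of 0.09, the orphan receptor gene *Gpr83* -0.17 and the giant cadherin gene *Fat3* -0.22, and in none of these did the unadjusted p fall under 0.05. *Mtnr1b* and *Cntn5* were below the level rule.

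The enzymes of the neighbourhood were led by *Hephl1*, a multicopper ferroxidase that oxidises iron for its export (chr9:14963137-15023415, 5.99 Mb away). It stood at 2.98, 3.46, 3.21 and 2.75 CPM in WT and at 7.24, 3.77 and 5.66 in KO. KO3 was just above the highest WT library, and KO2 was more than all others. The logFC was 0.85 ± 0.20, 1.8-fold, with an adjusted p of 0.278 in edgeR and 0.00994 in DESeq2, and the logFC was 0.61 without KO2 and 1.06 without KO3. The other 4 enzymes lay between logFC -0.11 and 0.03 and none had an unadjusted p under 0.05. They were *Aasdhppt*, which attaches phosphopantetheine to carrier proteins (-0.02), the fucosyltransferase *Fut4* (-0.09), the peptidase *Naalad2* (0.03) and *Endod1* (-0.11), a putative nuclease.

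Of 6 genes of cilia and centrosomes, 1 differed at an unadjusted p under 0.05. *Cfap300*, which is needed to assemble the dynein arms of motile cilia (chr9:8020416-8042880, 0.857 Mb away), was at 3.32, 2.9, 3.1 and 3.39 CPM in WT and at 3.8, 4.77 and 5.05 in KO. The groups did not overlap, with KO2 nearest to WT. The logFC was 0.51 ± 0.13, 1.43-fold, with an adjusted p of 0.314 in edgeR and 0.0575 in DESeq2. *Cep295*, a centriole protein, was at 28.2 to 32.1 CPM in WT and 32.9 to 34.9 in KO, with a logFC of 0.13 ± 0.063 (edgeR, unadjusted p = 0.0703), or 0.21 with transcript length offsets. *Cep126* lies next to *Cfap300* and had a logFC of -0.21, opposite in sign. *Dync2h1*, the motor of retrograde transport in cilia, had 0.12, *Cep57* 0.03 and *Deup1*, which multiplies centrioles in multiciliated cells, -0.12. Multiciliated cells themselves left little trace, since 4 of their 6 markers were high enough to test, *Mcidas* was at 0 in every library, the summed level was 1.13 to 2.0 CPM in WT and 1.6 to 2.02 in KO, and none of the 4 had an unadjusted p under 0.05.

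Both Hippo pathway genes were lower in KO at an unadjusted p under 0.05, where 5.1% of all genes were. *Yap1*, the transcriptional co-activator that the pathway restrains, was at 126, 131, 132 and 132 CPM in WT and at 109, 110 and 121 in KO. No libraries overlapped, but KO4 was close to WT1. The logFC was -0.20 ± 0.056 (edgeR, adjusted p = 0.341, DESeq2 0.14). *Amotl1*, an angiomotin that binds YAP at cell junctions and lies 5.48 Mb to the other side, was at 108, 115, 114 and 111 CPM in WT and at 91.5, 89.6 and 111 in KO, so that KO4 lay within the WT range. Its logFC was -0.20 ± 0.079 (edgeR, adjusted p = 0.498), and -0.31 without KO4. The unadjusted edgeR p was 0.117 without KO2 and 0.143 without KO3. Of the markers given above, 5 of 5 for smooth muscle and pericytes (median logFC -0.34), 4 of 5 for endothelium (-0.13) and 5 of 5 for theca (-0.49) were also lower in KO by logFC, at an unadjusted p under 0.05 for 3, 2 and 1 of them, and their part in these values was not tested.

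**Figure D3:**
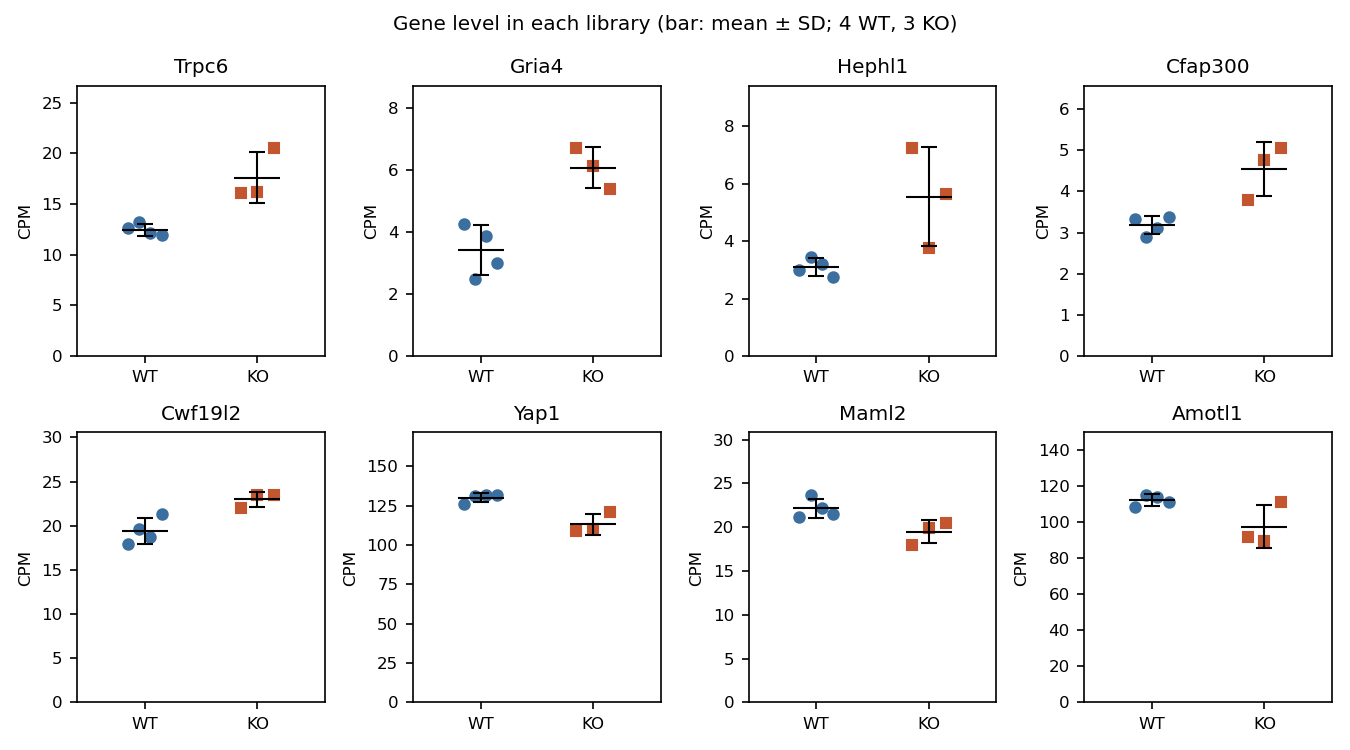
Level in CPM in each library for 8 members, with circles for the 4 WT and squares for the 3 KO libraries and a bar for mean ± SD. For *Trpc6*, *Gria4*, *Hephl1*, *Cfap300* and *Cwf19l2* the KO libraries lie above all WT libraries, for *Yap1* and *Maml2* they lie below, and for *Amotl1* 1 KO library is at 111 CPM, inside the WT range.

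Of 6 signalling genes only *Maml2*, a co-activator of Notch, had an unadjusted p under 0.05. It was at 21.2, 23.7, 22.2 and 21.5 CPM in WT and at 18.0, 19.9 and 20.5 in KO, with a logFC of -0.19 ± 0.07 (edgeR, adjusted p = 0.475). It was -0.35 with transcript length offsets, and without KO2 it was -0.13, with an unadjusted edgeR p of 0.11. *Sesn3*, a stress-induced regulator of mTORC1, varied widely, from 109 to 184 CPM in WT and from 94.2 to 162 in KO, and its logFC of -0.34 ± 0.21 was within that spread. *Pdgfd*, a ligand of PDGF receptor beta, had a logFC of -0.13, the soluble guanylate cyclase subunit *Gucy1a2* 0.13, the GTPase-activating protein gene *Arhgap42* 0.10 and the lipid phosphatase *Mtmr2* -0.05. *Arhgap42* is the coding gene closest to *Pgr*, 0.0239 Mb away, and its libraries overlapped (77.8 to 91.4 CPM in WT and 89.4 to 91.6 in KO).

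Transcription, chromatin and RNA processing were represented by 10 members, of which 1 had an unadjusted p under 0.05. *Cwf19l2*, a splicing-related gene, was at 17.9, 19.6, 18.7 and 21.3 CPM in WT and at 22, 23.5 and 23.5 in KO, with a logFC of 0.25 ± 0.073 (edgeR, adjusted p = 0.357). The other 9, *Kdm4d*, *Jrkl*, *Med17*, *Taf1d*, *Cwc15*, *Mre11a*, *Alkbh8*, *Chordc1* and *Zfp558*, lay between logFC -0.01 and 0.16. *Kdm4dl*, an unprocessed pseudogene whose 1187 bases lie within the span of *Kdm4d* on the same strand, had the largest logFC of the group, 1.29 ± 0.40 (edgeR, adjusted p = 0.386). Its level was 0.384, 1.13, 0.532 and 1.16 CPM in WT and 2.41, 1.13 and 2.35 in KO, so KO3 fell inside the WT range, and reads could be divided between it and *Kdm4d* in more than 1 way. *Muc16*, a large membrane mucin of the surface epithelium, was at 1.9, 5.27, 1.88 and 4.0 CPM in WT and at 1.68, 1.19 and 2.1 in KO. All KO libraries were near the 2 lower WT libraries, and the logFC was -0.97 ± 0.39 (edgeR, adjusted p = 0.517) and -0.64 without WT2, and -0.34 with transcript length offsets. All 5 surface epithelial markers were also lower in KO by logFC, with a median of -0.44, 1 of them (*Upk3b*, -1.07) at an unadjusted p under 0.05, and their part in the *Muc16* value was not tested.

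None of the 3 caspases and 2 apoptosis inhibitors had an unadjusted p under 0.05 in summed gene level. *Casp1*, which activates interleukin-1 beta, was at 1.99 to 2.27 CPM in WT and 2.4 to 2.5 in KO without overlap (logFC 0.22 ± 0.12, edgeR, unadjusted p = 0.0956 over all genes). *Casp12* had a logFC of 0.13, *Birc2* -0.10 and *Birc3* -0.05. *Casp4* (chr9:5308828-5336783, 3.56 Mb from *Pgr*) was at 5.15, 5.82, 5.84 and 3.2 CPM in WT and at 4.13, 4.25 and 2.74 in KO, with a logFC of -0.43 ± 0.24 (edgeR, unadjusted p = 0.103), which was -0.25 without KO4 and 0.09 with transcript length offsets. Its transcripts, in contrast, lay in opposite directions.

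Casp4-201, the 9-exon form that encodes the full protein, was estimated at 229, 252, 285 and 157 reads in WT1 to WT4 and at 81.6, 101 and 68.5 in KO2 to KO4. All KO libraries were below all WT libraries. On the transcript CPM scale the means were 4.25 ± 1.14 (SD, n = 4) and 1.57 ± 0.461 (SD, n = 3), 2.71-fold lower in KO (logFC -1.44 ± 0.31), with an adjusted p of 0.689 in edgeR over 55145 transcripts and 0.0041 in DESeq2. Casp4-207, a form annotated as retained intron that starts inside intron 3 and ends in exon 6, was at 14.7, 10.3, 20.1 and 11.7 reads in WT and at 70.0, 51.6 and 43.9 in KO. Here every KO library was more than 2 times the highest WT library in reads. It was 3.89-fold higher in KO (logFC 1.96 ± 0.31), with an adjusted p of 0.376 in edgeR and 0.00234 in DESeq2. Casp4-204, which is annotated as a target of nonsense-mediated decay and ends in intron 6, was at 8.18, 9.98, 11.9 and 14.6 reads in WT and at 40.4, 27.1 and 17 in KO, again without overlap. Its logFC was 1.33 ± 0.37, with an adjusted p of 0.985 in edgeR and 0.607 in DESeq2. Casp4-202, which ends in intron 7, was at 14.6, 19.7, 9.9 and 16.0 reads in WT and at 32.7, 19.3 and 20.8 in KO, and its libraries overlapped in CPM. All 3 short forms end before exon 8. The printed junctions are those of the introns they keep in part, and other differences, such as the shorter exon 2 of Casp4-202 and the end of Casp4-207 inside exon 6, lie elsewhere. As a share of the gene's TPM (a level scaled to transcript length and library size), Casp4-201 made up 79.1, 82.3, 78.4 and 75.6% in WT and 21.1, 35.3 and 26.6% in KO, and Casp4-207 made up 11.2, 7.49, 12.4 and 12.5% in WT and 40.2, 40 and 38.0% in KO. By TPM share Casp4-201 was the main form in each WT library and Casp4-207 in each KO library, whereas in reads the longer Casp4-201 was the larger in every library. With shares of reads in place of TPM, a choice added after seeing the data, the differences between KO and WT were -41.9 points for Casp4-201 and 22.2 points for Casp4-207. The TPM differences of -51.2 and 28.5 percentage points each had p = 0.0286 in a two-sided exact permutation test of 4 against 3 libraries, the smallest p that design allows. This smallest p was reached by 7 of 75 shares tested in 28 members (9.33%, against 2.67% of 19683 shares tested over all genes), and every adjusted p over all genes was 1. The 7 were Casp4-201, Casp4-207, Gpr83-201, Gpr83-202, Fat3-204, Cep126-203 and Muc16-202, and shares of 1 gene depend on each other. The 28 members were among those named here, which were picked in part by a small p, so the 2 percentages are not like for like. The gene's summed TPM was 6.31 in WT and 6.88 in KO, the other sign from its summed reads.

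**Figure D4:**
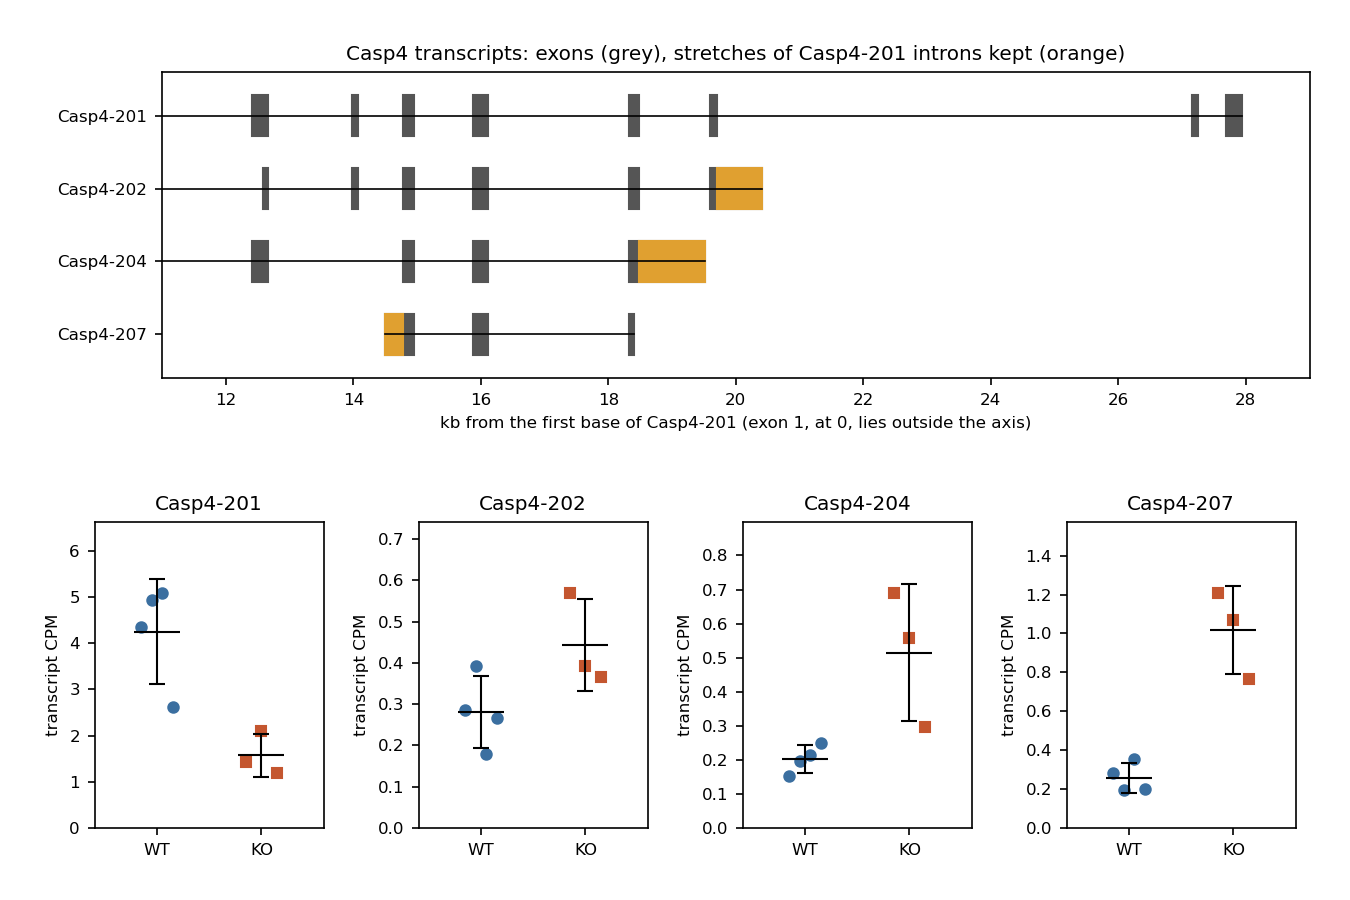
Top: exons of 4 *Casp4* transcripts in kb from the first base of Casp4-201 (exon 1 lies outside the axis), with stretches of its introns that the short forms keep in orange. Bottom: level of each transcript in CPM in each library, with circles for WT, squares for KO and a bar for mean ± SD. Casp4-201 averaged 4.25 in WT and 1.57 in KO, while Casp4-207 averaged 0.259 and 1.02.

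Other members also differed by transcript. Of 183 member transcripts tested, 21 (11.5%) had an unadjusted p under 0.05 in edgeR, against 4.48% of all transcripts, and they belonged to 16 genes. The share was 6 of 17 (35.3%) within 1 Mb of *Pgr*, 8 of 70 (11.4%) from 1 to 5 Mb and 7 of 96 (7.29%) from 5 to 10 Mb, with 4.66% on the rest of chromosome 9 and 4.44% on other chromosomes. None passed the adjusted threshold in edgeR, where 0.00725% of all transcripts did (4 transcripts), and DESeq2 called 3 of 217 (1.38%, against 0.384%), namely Casp4-201, Casp4-207 and Trpc6-201. Transcripts of 1 gene share reads and are not independent of each other, and Salmon divides reads between them by estimation.

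*Gpr83* had overlapping levels in sum (1.63 to 2.4 CPM in WT and 1.41 to 2.15 in KO), but not by form. Gpr83-201 contains this exon of 126 bases and Gpr83-202 lacks it, keeping the reading frame. Gpr83-202 was at 9.26, 15.6, 15.2 and 6.12 reads in WT and at 40.1, 35.2 and 28.1 in KO, so each KO library was well above each WT library. The logFC of Gpr83-202 was 1.57 ± 0.42, with an adjusted p of 0.964 in edgeR and 0.303 in DESeq2, so neither called it. Gpr83-202 made up 13.4, 15.5, 17.8 and 5.27% of the gene's TPM in WT and 37.5, 43.9 and 39.2% in KO. That was a difference of 27.2 percentage points (exact permutation p = 0.0286). Gpr83-201 was 24.8 percentage points lower. *Tmem123*, a cell surface glycoprotein gene 1.11 Mb from *Pgr*, had 189 to 202 CPM in WT and 204 to 235 in KO (logFC 0.14 ± 0.065, unadjusted p = 0.0653 in edgeR, and logFC 0.07 without KO4). Its form Tmem123-203, which adds an exon of 116 bases whose coding part ends after 56 bases, was estimated at 362, 251, 415 and 307 reads in WT and at 92.0, 0 and 20.2 in KO. The groups were far apart, at 6.08 ± 1.25 CPM (SD, n = 4) and 0.646 ± 0.835 (SD, n = 3), with a logFC of -3.22 ± 1.1 (edgeR, adjusted p = 1, DESeq2 0.596). KO2 held most of the KO reads, and the logFC without it was -5.06. This transcript was below 10% of its gene's TPM and was singled out after its values were seen.

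*Trpc6* was not uniform either. Trpc6-201, which has 13 exons, was higher in KO (10.8 ± 1.25 CPM in WT and 16.0 ± 2.05 in KO, logFC 0.56 ± 0.13, DESeq2 adjusted p = 0.0493), whereas Trpc6-203, which stops 1807 bases past the end of exon 3, was at 31.0, 51.2, 45.8 and 28.7 reads in WT and at 13.2, 9.69 and 14.0 in KO. All KO libraries of the short form were below all WT libraries (logFC -1.67 ± 0.34, DESeq2 adjusted p = 0.0632). Cep57-207, a short form annotated as a target of decay, was at 20.1 to 25.2 reads in WT and 42.6 to 64.3 in KO (logFC 1.18 ± 0.23, DESeq2 adjusted p = 0.11), while *Cep57* in sum was at 27.3 to 28.8 and 27.8 to 28.7 CPM. The share of Fat3-204, a form of *Fat3* made of exons at its 3′ end, was 57.6 to 63.6% of the gene's TPM in WT and 44.3 to 56.1% in KO, and that of Cep126-203 was 28.6 to 37.1% and 41.0 to 43.4%. Each of the last pair had p = 0.0286 (exact permutation test). Trpc6-203 and Cep57-207 were named after their values were seen.

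**Figure D5:**
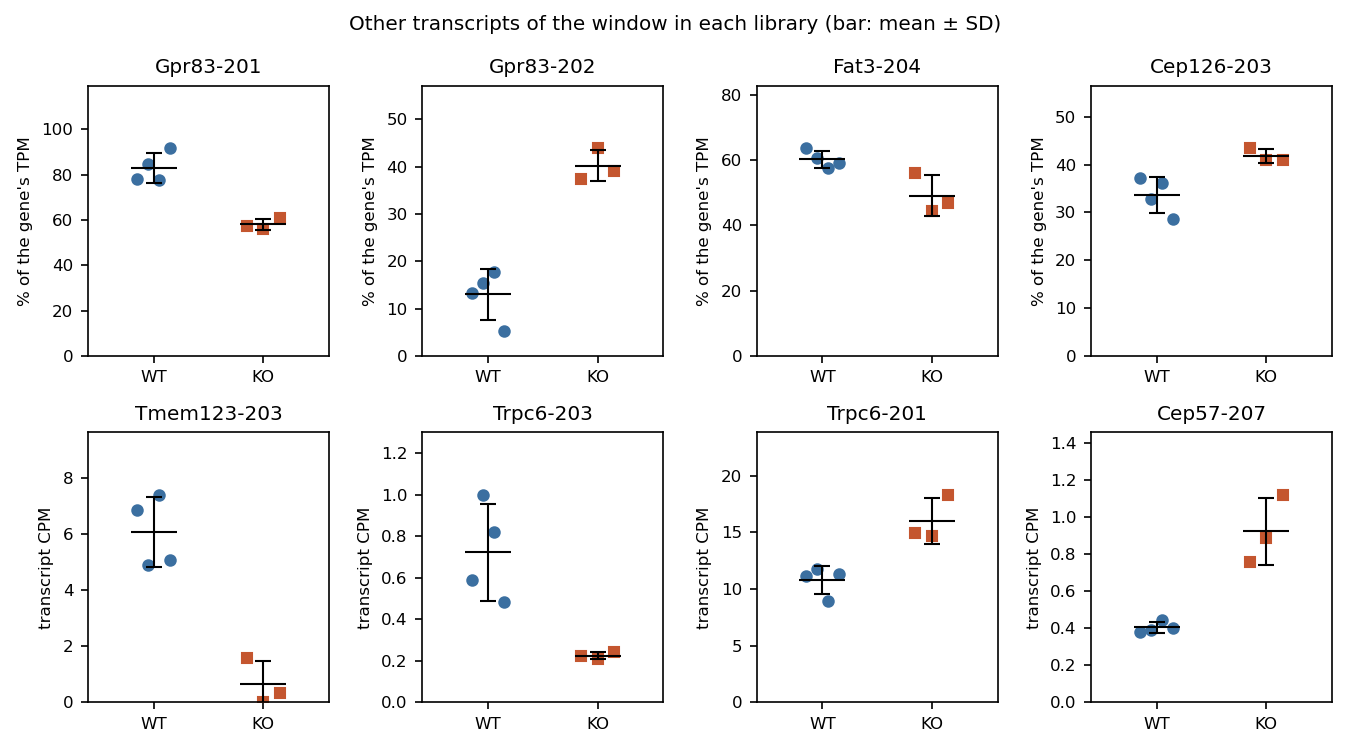
Top: share of the gene's TPM (%) for 4 transcripts. Bottom: level in CPM for 4 others. Circles are the 4 WT and squares the 3 KO libraries, with a bar for mean ± SD. The groups do not overlap in any of the 8 panels, with Gpr83-202 at 5.27 to 17.8% in WT and 37.5 to 43.9% in KO.

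The remaining 17 members lay between logFC -0.19 and 0.51, 9 higher and 8 lower in KO, and the smallest unadjusted p was 0.163. Per length, the most abundant member was *Gm47034*, a long non-coding RNA 2.55 Mb from *Pgr*, at a mean of 509 TPM in WT and 379 in KO, but its libraries varied (115, 257, 137 and 165 CPM in WT and 113, 131 and 125 in KO) with WT2 the highest and a logFC of -0.46 ± 0.24. *Gria4* (1.12 and 2.17 TPM) and *Hephl1* (0.895 and 1.65) were among the rare transcripts. For 16 members the annotated span overlaps that of another gene, in 8 of 10 pairs on the opposite strand, among them *Trpc6* and *Gm32014*, *Cep295* and *Taf1d*, and *Mtmr2* and *Cep57*. Libraries were stranded, but the caspases, *Birc2* and *Birc3*, and *Kdm4d* and *Kdm4dl* are similar in sequence, and their division of reads is less certain.

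Relatives of these genes elsewhere in the genome were listed for comparison, and 51 of 55 could be tested. At an unadjusted p under 0.05 there were 7 (13.7%, against 8.94% of all genes). Of the 51, 5 had groups that did not overlap, where 9.05% of all genes did not. The median absolute logFC was 0.12 (0.097 over all genes) and none had an adjusted p of at most 0.05 in edgeR. *Trpc4* was at 4.34, 5.21, 2.75 and 4.57 CPM in WT and 2.76, 2.69 and 2.85 in KO, with WT3 among the KO libraries and opposite in sign to *Trpc6* (logFC -0.61 ± 0.20, unadjusted p = 0.0153), *Trpc7* had a logFC of -1.61 at 0.226 and 0.0739 CPM, and *Trpc1* and *Trpc5* had 0.05 and 0.29. *Gria3*, the most abundant of its family by CPM, had a logFC of -0.41 and *Gria1* 0.01. *Heph* and *Cp*, the ferroxidases related to *Hephl1*, had -0.06 and -0.18. *Amotl2*, the angiomotin on the far part of chromosome 9, was at 76.2 to 92.4 CPM in WT and 66.6 to 73.2 in KO (logFC -0.22 ± 0.077, unadjusted p = 0.0193). The other Hippo relatives listed, *Amot* and *Wwtr1*, had logFC -0.11 and -0.05 (edgeR, unadjusted p = 0.263 and 0.438). The other caspases had logFC between -0.06 and 0.28, with *Casp6* at 0.28 ± 0.11 (unadjusted p = 0.0287), both values by edgeR.

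Progesterone receptor binds DNA at palindromes of the half-site TGTTCT, which reads AGAACA on the opposite strand. In the 250 bases before and 50 bases after the start of each gene's most abundant transcript, searched on both strands, 12 of 60 members (20%) held at least 1 half-site, against 15.8% of 19232 genes tested. The palindrome, GNACA followed after 3 bases of any kind by TGTNC, occurred in 0 of 60 and in 0.385% of all. Of the 4 leading genes only *Trpc6* held a half-site, 212 bases before the start of Trpc6-201, shown with 12 bases on each side and the half-site in capitals.
Trpc6 promoter, chr9:8543715-8543744, + strand, GRCm39: cattccacggtaAGAACAcagactgctctt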

How the data were processed

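Stranded mRNA libraries had been sequenced as paired 100 bp reads, and the authors quantified them with Salmon against GENCODE M26 on GRCm39, giving expected counts, TPM and effective lengths of each transcript in the deposited files. The TPM values as deposited were used for transcript shares and for levels between genes. Transcripts were matched to GENCODE M39, also on GRCm39, by identifier (137570 of 139225, 98.8%, with 99.37% or more of each library's reads). Expected counts were summed per gene and rounded. Depth was 47.4 to 63.4 M reads per library. The biological coefficient of variation was 0.127, and counting error adds to it most for members and transcripts with few reads.

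Samples were grouped by their titles. edgeR 4.0.16 in R 4.3.3 (TMM, filterByExpr, glmQLFit, glmQLFTest, two-sided) compared 3 KO with 4 WT libraries over 19233 genes. SE was the absolute logFC divided by the square root of F. Calls required adjusted p ≤ 0.05 together with a logFC of 0.5 or more in size, as in the study, whose tool DESeq2 (1.42.0 here) was an alternative. Other alternatives were median-of-ratios scaling, other filters, transcript length offsets, a replicate block, left-out libraries, windows of 5 and 20 Mb and a minimum of 50 mean reads. The tests of single transcripts were added after seeing the data. Distance was the gap between gene spans. Transcript shares of at least 10% in named members with at least 100 mean reads were tested by enumerating all 35 placements of the labels, and likewise in all genes for the adjusted p. Named members were the 4 leading genes, the 12 with the smallest p, those called, the 3 nearest on each side, the 5 with the highest CPM and lists by role, 43 in all. The code was tested on simulated data. Members and lists were chosen with earlier results of these data known. Sequences are from GRCm39 and promoter starts from GENCODE M39.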

Additional observations from a re-analysis of the deposited data

Results flagged for a closer look

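Over 49 genes and transcripts named here, the highest or lowest of the 4 WT libraries was compared with the rest by Dixon's test, which marks about 1 in 20 groups by chance. It marked 1. *Endod1* stood at 83.3 CPM in WT4, against 49.9 to 52.8 CPM in the other 3 WT libraries and 45.8 to 62.6 CPM in KO.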

How the results depend on the processing

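No member was called under any edgeR setting, and DESeq2 called 3. No member transcript was called by edgeR, and DESeq2 called 3. The number of members whose libraries did not overlap was 7 with transcript length offsets (11.7%, against 8.62% of all genes) and 7 within 5 Mb, a window of 28 members of which 5 had an unadjusted p under 0.05 (all genes 9.05% and 8.94%). Leaving out 1 library gave 7 to 15 members with such a p (5.98 to 12.3% of all genes), 12 to 23 without overlap (12.6 to 24.1% of all genes) and a median absolute logFC of 0.12 to 0.134. DESeq2 with 1 library left out, a choice added after seeing the data like the transcript tests, called 1 (without KO2) to 4 members. Within 20 Mb, a window of 163 members, 12 had an unadjusted p under 0.05 and 16 did not overlap (all genes 8.94% and 9.05%). The median absolute logFC in that window was 0.097, the same as over all genes. The other counts over the members stayed within 1.5 times under the settings tried. The sign of *Casp4* as a gene turned, from -0.43 to 0.09, with transcript length offsets, which correct for the mean length of the transcripts in use. Among 30 other named members, 29 of 390 values changed sign, all in genes with a logFC of at most 0.16 in size, and none was called. Deviations from the group means correlated weakly between same-numbered libraries (r = -0.01, 0.11 and 0.08) and between the others (-0.13 to 0.1). With 4 WT and 3 KO libraries this cannot settle whether the numbers pair them. With a replicate block 0 members were called, and 14 had an unadjusted p under 0.05 (23.3%, against 11.5% of all genes, of which 26 were called). The median absolute logFC was then 0.125 and 0 transcripts were called. Counting error limits the precision for transcripts with few reads, such as Casp4-207 at 10.3 to 20.1 reads in WT.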
